A study of Mus musculus with 12 samples.

Results

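The amino acid transporter families were taken as the genes whose symbol places them in solute carrier family 1, 3, 6, 7, 15, 16, 36, 38, or 43 and whose mean over all libraries was at least 0.5 RPKM, a read count scaled by gene length and by library size. They were thus chosen by symbol and selected on the mean level over all libraries, and no test between groups entered this rule. The choice was not blind to group differences, since it was made with earlier results of these data known. Some members also reached the minimum mean only through the groups in which they were higher, as described below. Of 79 such symbols among the 22456 genes of the expression table, 42 reached that level and are described here, out of 11507 genes of all kinds that did. Liver RNA was sequenced from 12 male mice in 4 groups of 3. Lpin1+/+ and Lpin1-/- littermates were studied after a 16-hour fast or after the same fast and 5 hours of refeeding with chow. All were on the BALB/cByJ background and aged 2 to 8 months. The Lpin1-/- mice are fatty liver dystrophy (fld) mice, which lack lipin 1 in every tissue from birth, so liver and body differ together. Fasted livers were taken in the morning and refed livers in the afternoon, so feeding and time of day cannot be told apart.

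Amino acids enter and leave hepatocytes through transporters that differ in what drives them. System A and system N carriers of the SLC38 family use the sodium gradient to take up alanine, glutamine, and other neutral amino acids for gluconeogenesis, urea synthesis, and protein synthesis. Heteromeric transporters pair a heavy chain of the SLC3 family, which brings the complex to the membrane, with a light chain of the SLC7 family, which exchanges 1 amino acid for another. Other members import cationic amino acids, taurine, betaine, or glutamate, move aromatic amino acids, creatine, lactate, or ketone bodies by the monocarboxylate (SLC16) route, or export amino acids and histidine from lysosomes.

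The members spanned a wide range of levels, as the plot of RPKM in each library shows. The sodium-coupled neutral transporters held 63.8% of the summed mean RPKM of the 42 genes with 7 members, and Slc38a4 (SNAT4) and Slc38a3 (SNAT3, the system N glutamine carrier) alone held 58.2%. There were 18 members at 10 RPKM or more, 18 between 1 and 10 RPKM, and 6 under 1 RPKM. The members just above the minimum were Slc6a16 at 0.508, Slc7a8 at 0.511, and Slc16a9 at 0.561 RPKM, and the symbols just below it were Slc16a3 at 0.403, Slc38a1 at 0.161, and Slc6a4 at 0.148 RPKM. Of the 37 symbols left out, 26 were under 0.1 RPKM in every library and 2 were at 0 throughout. For 5 members (Slc16a13, Slc7a6, Slc16a9, Slc7a8, and Slc6a16), at least 1 group mean lay under the minimum, so they passed through the groups in which they were higher.

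**Figure D1:**
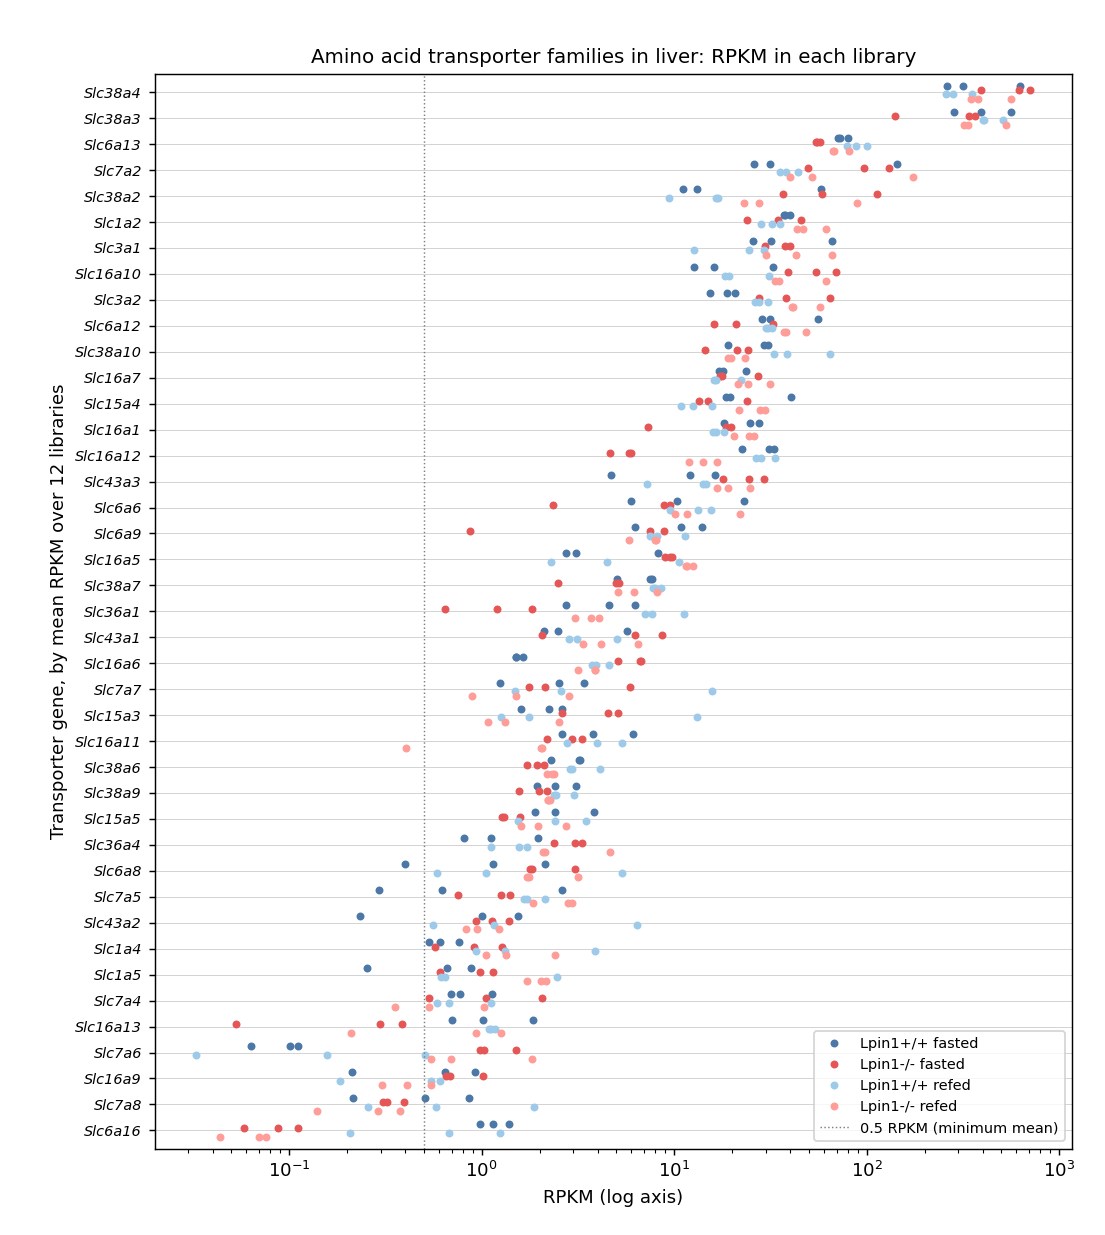
RPKM of 41 transporter genes (rows, by mean level) in each of 12 libraries on a log axis, with 1 point per library, colored by group. Slc38a4 and Slc38a3 lie above the other members with means of 425 and 384 RPKM, and the widest separation of groups is seen in low genes such as Slc6a16 and Slc7a6.

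Lpin1, the gene disrupted in these mice, was at 22.0, 0.726, and 1.76 RPKM in fasted Lpin1+/+ liver and at 2.92, 0.784, and 2.76 RPKM in refed Lpin1+/+ liver, and it was at most 0.0597 RPKM in every Lpin1-/- library. Summed hepatocyte markers (5 of 6 found) ranged from 33467 to 73560 RPKM, and all other marker lists were far lower. No marker of the other cell types was at 0 in every library. After the data were seen, 3 libraries were taken to stand apart, by marker sums and the other values given here. Fasted Lpin1+/+ replicate 1 had the highest Lpin1, 121 RPKM of lymphoid and granulocyte markers against 16.3 and 11.7 RPKM in its group, and the highest level of its group for 31 of 42 members. Fasted Lpin1-/- replicate 1 had 452 RPKM of biliary markers against 57.0 and 24.9 RPKM. Refed Lpin1+/+ replicate 2 had 732 RPKM of Kupffer cell and macrophage markers against 150 and 92.3 RPKM and the lowest hepatocyte sum. Counts are therefore also given without these 3 libraries, but the members alone would not single them out. The median distance of members from their group mean, in log2(RPKM + 1), was 0.323, 0.292, and 0.242 in these libraries. It was 0.326 in fasted Lpin1+/+ replicate 2. In refed Lpin1-/- replicate 1, the highest of its group for 27 of 42 members, it was 0.303. In bulk liver, fewer cells of a type and less RNA per cell cannot be told apart.

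The effect of lipin 1 loss on these transporters was compared first in fasted liver. In all, 9 of 42 members passed the threshold, an adjusted p under 0.05 (limma, with Benjamini-Hochberg adjustment over 11507 genes). Of these, 4 were higher in Lpin1-/- liver, where 5.63% of all genes tested were higher, and 5 were lower, where 13.2% of all genes were lower. Slc16a6, Slc16a10, Slc3a2, and Slc7a6 rose, and those that fell included Slc16a12, Slc36a1, Slc6a16, and Slc16a13. Of these, Slc7a6, Slc6a16, and Slc16a13 reached the minimum level through the groups in which they were higher. The median difference of the members was -0.02 on the log2(RPKM + 1) scale, beside -0.14 for all genes, and after rescaling of each library by its median ratio these became 0.11 and -0.04, and the share of all called genes that were higher went from 29.9% to 41.0%. After rescaling 12 members passed, 7 higher, with Slc16a5 (adjusted p = 0.0449), Slc36a4 (adjusted p = 0.0141), and Slc43a3 among them, and 5 lower. Without the 3 libraries that stood apart, 14 members passed, 12 of them higher and 2 lower, and of all genes 2415 passed, 44.6% of them higher. Fasted Lpin1+/+ replicate 1, among these 3, was set apart in part by its high member levels. Leaving it out raises these differences by that choice, so this count is not separate support. Without that library alone, the median difference of the members was 0.20. All changes below are differences in log2(RPKM + 1) with their SE, which understate the change of low genes.

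**Figure D2:**
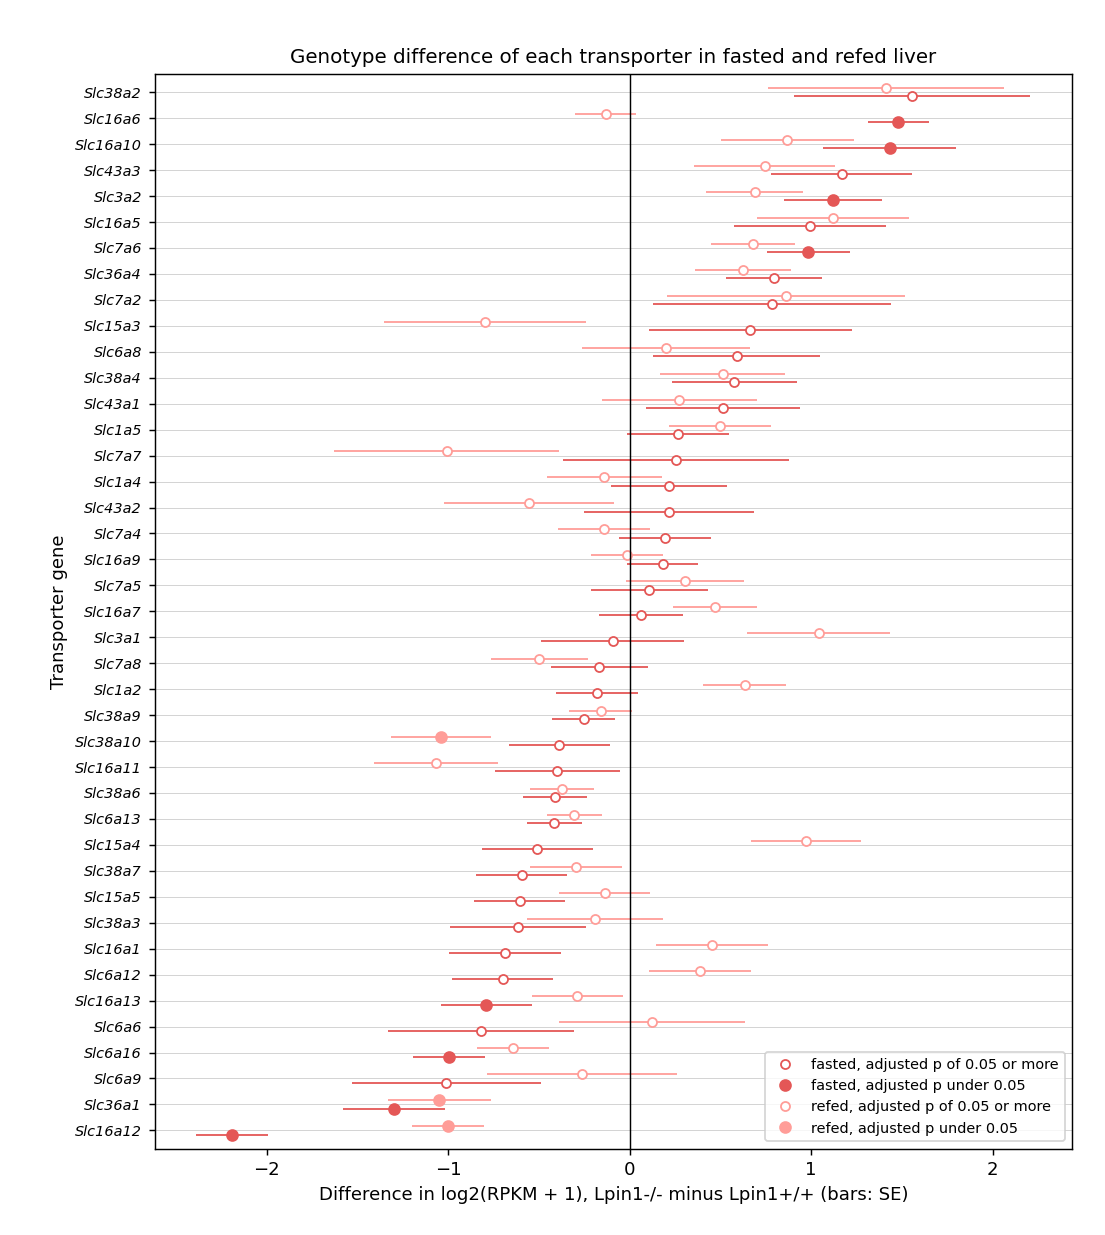
Difference in log2(RPKM + 1) between Lpin1-/- and Lpin1+/+ liver for 41 transporters in the fasted and refed states, with SE bars. Filled points passed an adjusted p of 0.05. Slc16a12 has the lowest fasted value at -2.19, and Slc16a6 is at 1.48 in the fasted state and -0.13 in the refed state.

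The most altered member was Slc16a12, a monocarboxylate family transporter that carries creatine (chr19:34668403-34747289, minus strand, GRCm38). It was at 33.1, 22.6, and 30.9 RPKM in fasted Lpin1+/+ libraries and at 5.84, 4.64, and 6.00 RPKM in fasted Lpin1-/- libraries, with means of 28.9 ± 5.51 and 5.49 ± 0.741 RPKM (SD, n = 3). Every Lpin1-/- library was below every Lpin1+/+ library, and the difference was -2.19 ± 0.20 (adjusted p = 0.00017). Refed livers held 26.6, 33.4, and 28.2 RPKM in Lpin1+/+ mice and 11.9, 16.7, and 14.2 RPKM in Lpin1-/- mice, again without overlap, with a difference of -1.001 ± 0.20 (adjusted p = 0.0142). Refed livers thus exceeded fasted ones in Lpin1-/- mice by 1.23 ± 0.20 (adjusted p = 0.00221), and in Lpin1+/+ liver the fasted and refed values overlapped. The difference between the genotypes in this response, 1.19, did not pass in the main fit. It passed after median-ratio rescaling or without fasted Lpin1+/+ replicate 2. The fasted genotype difference and the refeeding change in Lpin1-/- liver passed under each of 20 alternatives, and the refed genotype difference did not pass without refed Lpin1-/- replicate 1 (-0.89, adjusted p = 0.0619) or 3 (-1.004, adjusted p = 0.0571).

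Slc36a1 was also lower in Lpin1-/- liver in both feeding states. Slc36a1 (PAT1) is a proton-coupled transporter that moves small amino acids out of lysosomes (chr11:55204350-55236330, plus strand). It was at 6.28, 2.75, and 4.58 RPKM in fasted Lpin1+/+ libraries and at 0.649, 1.82, and 1.20 RPKM in fasted Lpin1-/- libraries, without overlap, and the difference was -1.30 ± 0.28 (adjusted p = 0.00968). In refed liver it was at 11.3, 7.66, and 7.02 RPKM in Lpin1+/+ libraries and at 3.68, 4.09, and 3.05 RPKM in Lpin1-/- libraries, a difference of -1.05 ± 0.28 (adjusted p = 0.0494) that did not pass in 12 of 19 alternatives. In Lpin1+/+ mice, refed livers exceeded fasted ones by 0.83 without overlap, but this change did not pass. The difference between the genotypes in this response, 0.25, did not pass either. Within Lpin1-/- mice, refed livers exceeded fasted ones by 1.08 ± 0.28 (adjusted p = 0.0210), and the 2 states did not overlap. This refeeding change was not past the threshold without fasted Lpin1-/- replicate 1 (0.88, adjusted p = 0.0845), refed Lpin1-/- replicate 1 (1.07, adjusted p = 0.0569), or refed Lpin1-/- replicate 2 (1.01, adjusted p = 0.0814). Without the 3 libraries that stood apart, the fasted genotype difference was -0.88 (adjusted p = 0.0512), so that call ended there.

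Slc6a16 and Slc16a13, which also fell in fasted Lpin1-/- liver, were low, at an estimated 16.5 and 14.1 reads in their lowest libraries. Both reached the minimum level through the groups in which they were higher. Slc6a16, an orphan member of the sodium- and chloride-coupled family, was at 1.39, 0.981, and 1.14 RPKM in fasted Lpin1+/+ libraries and at 0.0584, 0.0876, and 0.111 RPKM in fasted Lpin1-/- libraries, a difference of -0.995 ± 0.20 (adjusted p = 0.00627) that passed under each of 19 alternatives. Its refed values were 0.674, 0.208, and 1.25 RPKM in Lpin1+/+ libraries and 0.0437, 0.0699, and 0.0755 RPKM in Lpin1-/- libraries, with a difference of -0.64 ± 0.20 (adjusted p = 0.0790). Each Lpin1-/- library was below each Lpin1+/+ library in both states. Slc16a13, a monocarboxylate family member, was at 0.703, 1.01, and 1.84 RPKM in fasted Lpin1+/+ libraries and at 0.0532, 0.295, and 0.384 RPKM in fasted Lpin1-/- libraries. Its difference of -0.79 ± 0.25 (adjusted p = 0.0462) was the weakest of the 9 and did not pass in 12 of 19 alternatives.

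Slc16a12, Slc36a1, and Slc6a16 fell together in fasted Lpin1-/- liver and all have a start site in the RefSeq promoter table, so the 250 bases before that start are shown (RefSeq, GRCm38.p6, 5′ to 3′). Capitals mark the E-box CACGTG, the motif read by the circadian CLOCK and BMAL1 proteins and by MYC- and TFE-type factors, and the D-box TTANGTAA, read by PAR bZIP factors, searched on both strands. Their positions are chr19:34747329-34747578 (minus strand), chr11:55204090-55204339 (plus strand), and chr7:45240503-45240752 (plus strand).
Slc16a12: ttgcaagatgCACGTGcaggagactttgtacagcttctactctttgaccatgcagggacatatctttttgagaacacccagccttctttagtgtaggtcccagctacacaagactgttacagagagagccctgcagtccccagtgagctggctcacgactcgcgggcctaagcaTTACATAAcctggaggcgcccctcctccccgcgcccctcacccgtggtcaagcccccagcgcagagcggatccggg
Slc36a1: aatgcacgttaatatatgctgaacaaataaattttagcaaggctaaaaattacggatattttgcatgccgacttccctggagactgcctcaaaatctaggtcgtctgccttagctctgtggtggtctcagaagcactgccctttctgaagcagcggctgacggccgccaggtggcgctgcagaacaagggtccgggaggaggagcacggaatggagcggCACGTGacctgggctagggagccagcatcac
Slc6a16: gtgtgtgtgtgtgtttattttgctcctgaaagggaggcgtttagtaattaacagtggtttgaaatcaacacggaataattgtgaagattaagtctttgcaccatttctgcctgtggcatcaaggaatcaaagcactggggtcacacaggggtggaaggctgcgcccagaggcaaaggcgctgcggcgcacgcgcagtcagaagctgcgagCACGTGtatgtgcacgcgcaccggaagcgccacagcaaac
The E-box lay 240 to 235 bases before the start in Slc16a12, 31 to 26 bases before it in Slc36a1, and 40 to 35 bases before it in Slc6a16, and the Slc16a12 window also held a D-box match 76 to 69 bases before the start. Of the 28 members with a promoter in the table, 6 held an E-box in this window (the 3 shown, Slc16a1, Slc38a7, and Slc43a1), beside 6.86% of the 27025 genes of the table, and 1 held a D-box, beside 2.44%. The amino acid response element TGATGNAA, read by ATF4, was found in 1 member, Slc7a7, beside 3.91% of genes. These are matches of letters and not binding sites, and the motifs were chosen after the changes were known.

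Among the 4 transporters that rose in fasted Lpin1-/- liver, Slc3a2 and Slc7a6 are partners in 1 complex. Slc16a6 (MCT7), which carries ketone bodies, was at 1.51, 1.65, and 1.51 RPKM in fasted Lpin1+/+ libraries and at 6.75, 6.62, and 5.13 RPKM in fasted Lpin1-/- libraries (means 1.56 ± 0.0794 and 6.17 ± 0.898 RPKM, SD, n = 3). The groups were far apart relative to their spread, and the difference was 1.48 ± 0.17 (adjusted p = 0.000399), passing under each of 19 alternatives.

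Slc3a2 (4F2hc, the heavy chain that carries most SLC7 light chains to the membrane) was at 20.7, 15.4, and 18.9 RPKM in fasted Lpin1+/+ libraries and at 27.7, 38.01, and 64.2 RPKM in fasted Lpin1-/- libraries, a difference of 1.12 ± 0.27 (adjusted p = 0.0148). Slc7a6 (y+LAT2), a light chain partner of Slc3a2 that exchanges arginine for glutamine, was at 0.101, 0.0633, and 0.111 RPKM in fasted Lpin1+/+ libraries and at 1.03, 0.986, and 1.51 RPKM in fasted Lpin1-/- libraries, a difference of 0.99 ± 0.23 (adjusted p = 0.0135). For both chains every Lpin1-/- library exceeded every Lpin1+/+ library. The Slc3a2 call was lost when only the 6 fasted libraries were fitted (adjusted p = 0.0653), and the Slc7a6 call passed under each of 19 alternatives. Slc7a6 reached the minimum level through the groups in which it was higher, and its lowest library held an estimated 17.7 reads. In refed liver the groups again did not overlap for either chain, at 27.8, 30.9, and 26.3 against 57.4, 41.1, and 41.7 RPKM for Slc3a2 and 0.158, 0.511, and 0.0330 against 1.84, 0.693, and 0.547 RPKM for Slc7a6, but neither difference passed (0.69, adjusted p = 0.154, and 0.68, adjusted p = 0.103).

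Slc16a10 (TAT1, the transporter of aromatic amino acids) was at 32.7, 12.6, and 16.1 RPKM in fasted Lpin1+/+ libraries and at 39.0, 54.3, and 69.0 RPKM in fasted Lpin1-/- libraries. The difference was 1.43 ± 0.37 (adjusted p = 0.0198) without overlap, and leaving out fasted Lpin1+/+ replicate 2 or 3 or fasted Lpin1-/- replicate 2 or 3 gave differences of 1.16 to 1.41 with adjusted p of 0.0563 to 0.0802. Refed livers held 31.1, 18.4, and 19.2 RPKM in Lpin1+/+ mice and 61.3, 34.9, and 33.3 RPKM in Lpin1-/- mice, also without overlap, with a difference of 0.87 ± 0.37 (adjusted p = 0.189).

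**Figure D3:**
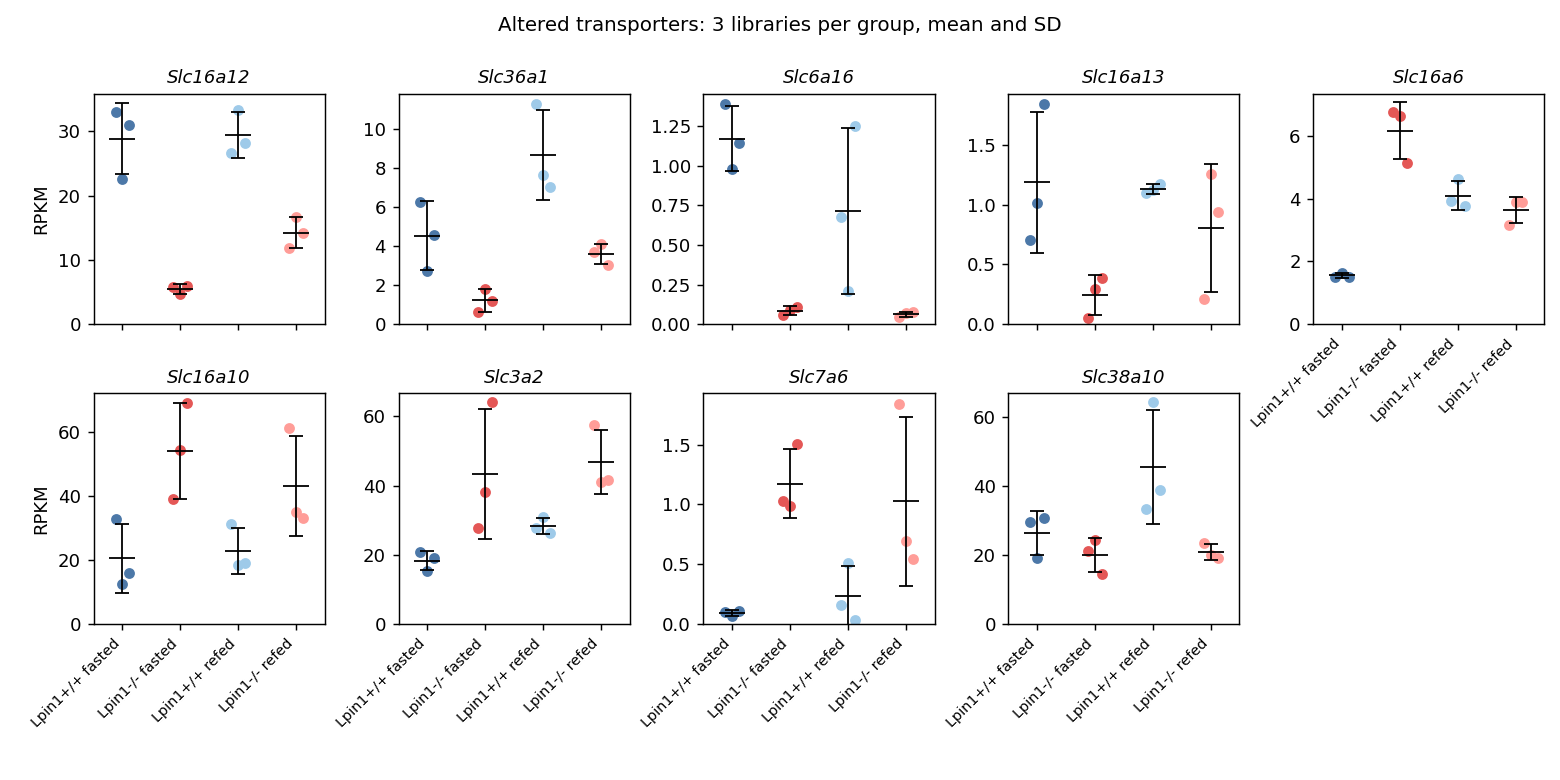
RPKM of 9 transporters that passed the threshold in at least 1 comparison, with 1 point per library and the mean and SD of each group of 3 (lower bars are cut at 0). The 3 fasted Lpin1-/- libraries lie below every Lpin1+/+ library for Slc16a12, Slc36a1, Slc6a16, and Slc16a13, and above every fasted Lpin1+/+ library for Slc16a6, Slc16a10, Slc3a2, and Slc7a6.

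Some marker sums also differed between genotypes in fasted liver. In fasted liver, the 8 pericentral hepatocyte markers summed to 7634 to 9250 RPKM in Lpin1+/+ libraries and to 2350 to 6685 RPKM in Lpin1-/- libraries, and the 7 stellate cell and fibroblast markers to 73.7 to 173 RPKM and 216 to 313 RPKM, in both cases without overlap. The 2 sums are mostly Cyp2e1 (6054 to 7925 against 1310 to 5144 RPKM) and Dcn (61.8 to 144 against 179 to 264 RPKM). Lgr5, Axin2, Tbx3, and Colec11 did not overlap either, whereas Glul, Cyp1a2, Rhbg, Oat, Lrat, Reln, Pdgfrb, Col1a1, and Col3a1 did. Kupffer cell and macrophage sums ranged from 158 to 329 and from 308 to 817 RPKM, lymphoid and granulocyte sums from 11.7 to 121 and from 51.2 to 175 RPKM, and both overlapped. In refed liver, the pericentral sums (2894 to 8502 against 4661 to 5476 RPKM) and stellate sums (81.1 to 209 against 168 to 210 RPKM) overlapped. The part of these cell types in the transporter differences was not tested.

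In refed liver, 4 members were lower in Lpin1-/- mice, where 4.07% of all genes were lower, and 0 were higher, where 2.6% of all genes were higher. At an unadjusted p under 0.05 in limma, 6 were lower and 8 were higher, beside 22.5% of all genes in either direction. Slc16a12 and Slc36a1 are described above. Slc38a10 was also lower. It is a little-studied member of the system A and N family and was at 33.2, 64.2, and 38.7 RPKM in Lpin1+/+ libraries and 23.4, 19.9, and 19.1 RPKM in Lpin1-/- libraries, a difference of -1.04 ± 0.28 (adjusted p = 0.0475) that did not pass in 14 of 20 alternatives. Its highest value lay in refed Lpin1+/+ replicate 2, the library rich in macrophage markers, without which the difference was -0.76 (adjusted p = 0.142). The medians were -0.07 for the members and -0.07 for all genes, and the share of all called genes that were higher went from 39.0% to 57.3% after rescaling. The count was 2 without fasted Lpin1-/- replicate 2 or 3, 1 without fasted Lpin1+/+ replicate 3, refed Lpin1+/+ replicate 1 or 3, or refed Lpin1-/- replicate 1 or 2, and 0 without refed Lpin1-/- replicate 3. Without the 3 libraries that stood apart, when 1292 of all genes passed against 767 with every library, it was 8, with Slc15a4, Slc16a5, and Slc1a5 higher, and with Slc16a11, Slc16a12, Slc36a1, and Slc6a16 among the lower ones.

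Few transporters passed between fasted and refed liver in either genotype. In Lpin1+/+ liver the count was near the share of all genes, and is no result about transporters. In Lpin1+/+ liver, 1 member was higher, where 1.52% of all genes were higher, and 0 were lower, where 0.2% were lower. At an unadjusted p under 0.05 in limma, 5 were higher and 1 was lower, beside 13.9% of all genes in either direction. The gene past the threshold was Slc16a6, which went from 1.51, 1.65, and 1.51 RPKM in fasted libraries to 3.91, 4.62, and 3.76 RPKM in refed libraries, a change of 0.99 ± 0.17 (adjusted p = 0.0173). After median-ratio rescaling, which moved the median change of all genes from 0.19 to -0.00039 and the share of called genes that were higher from 88.4% to 63.3%, the change was 0.81 (adjusted p = 0.0810). It also failed to pass without fasted Lpin1+/+ replicate 2 or 3 or without any 1 of the refed Lpin1+/+ replicates, each of which left 0 members called, at differences of 0.92 to 1.04. Without the 3 libraries that stood apart, Slc16a6 (0.91, adjusted p = 0.0400) and Slc7a5, the LAT1 light chain (0.89, adjusted p = 0.0469), were higher.

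In Lpin1-/- liver, 2 members were higher after refeeding, where 17.8% of all genes were higher, and 1 was lower, where 2.92% were lower. The higher genes were Slc16a12 and Slc36a1, described above. The lower gene was Slc16a6, which went from 6.75, 6.62, and 5.13 RPKM in fasted Lpin1-/- libraries to 3.17, 3.88, and 3.89 RPKM in refed Lpin1-/- libraries, a change of -0.62 ± 0.17 (adjusted p = 0.0238) that did not pass in 7 of 19 alternatives, among them leaving out any 1 of the refed Lpin1-/- replicates or fasted Lpin1-/- replicate 1 or 2 (adjusted p from 0.0587 to 0.0814). The median change was 0.18 for the members and 0.25 for all genes, and -0.0053 and 0.06 after rescaling, when the share of all called genes that were higher went from 85.9% to 68.9%. The count was 1 without fasted Lpin1-/- replicate 1 or refed Lpin1-/- replicate 1 or 2, and 5 without fasted Lpin1+/+ replicate 1, fasted Lpin1-/- replicate 3, or refed Lpin1+/+ replicate 2. Without the 3 libraries that stood apart, Slc16a12, Slc36a1, and Slc1a5 were higher and the change of Slc16a6 was -0.56 (adjusted p = 0.0616).

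Slc16a6 was thus the single member whose response to refeeding differed between genotypes, with an interaction of -1.61 ± 0.24 (adjusted p = 0.0104). Of all genes tested, 0.791% had a positive and 0.487% a negative interaction. For the other direction, 0 members passed. At an unadjusted p under 0.05 in limma, 5 members had a positive and 1 a negative interaction, beside 18.1% of all genes in either direction. Refed Lpin1+/+ and Lpin1-/- livers had Slc16a6 means of 4.10 ± 0.455 and 3.65 ± 0.413 RPKM (SD, n = 3) and overlapped. The interaction of Slc16a6 passed under each of 18 alternatives, from -2.07 to -1.47. Slc16a12 also passed without fasted Lpin1+/+ replicate 2, which made 2 members. Slc16a6 (chr11:109450855-109473598, minus strand) shares 21.5% of its exon bases with Amz2 and 0.983% with Arsg, both on the opposite strand. In fasted liver, the Lpin1-/- minus Lpin1+/+ difference was -0.52 ± 0.16 for Amz2 (adjusted p = 0.0445) and -1.85 ± 0.27 for Arsg (adjusted p = 0.00138), the opposite of Slc16a6. The strand setting of the gene counting is not given in the sources used here, so reads of these neighbors cannot be fully told apart.

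Most of the highly expressed transporters of each class did not pass the threshold in any comparison. Slc38a4, an imprinted system A carrier, was at 625, 261, and 317 RPKM in fasted Lpin1+/+, 391, 619, and 707 RPKM in fasted Lpin1-/-, 282, 258, and 352 RPKM in refed Lpin1+/+, and 562, 348, and 380 RPKM in refed Lpin1-/- libraries. Its fasted genotype difference was 0.58 with a 95% interval from -0.18 to 1.33 (adjusted p = 0.272), and without the 3 libraries that stood apart it was 1.20 (adjusted p = 0.0108). The highest fasted Lpin1+/+ value lay in replicate 1, which was left out there.

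Slc7a2 (CAT2, the arginine and lysine transporter of hepatocytes) was at 144, 25.9, and 31.6 RPKM in fasted Lpin1+/+, 49.5, 96.9, and 130 RPKM in fasted Lpin1-/-, 38.001, 43.8, and 35.6 RPKM in refed Lpin1+/+, and 175, 40.0, and 51.9 RPKM in refed Lpin1-/- libraries. Fasted Lpin1+/+ replicate 1 and refed Lpin1-/- replicate 1 were far above the other libraries of their groups. The fasted genotype difference was 0.78 with an interval from -0.65 to 2.22 (adjusted p = 0.440), and 1.94 without the 3 libraries that stood apart (adjusted p = 0.0275). Fasted Lpin1+/+ replicate 1 was among those left out, and refed Lpin1-/- replicate 1 was not.

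Slc6a13 (GAT2, a hepatic carrier of taurine and GABA) was at 71.1, 72.9, and 79.6 RPKM in fasted Lpin1+/+, 55.1, 54.4, and 57.1 RPKM in fasted Lpin1-/-, 88.1, 78.7, and 99.9 RPKM in refed Lpin1+/+, and 80.7, 66.7, and 67.7 RPKM in refed Lpin1-/- libraries. Fasted Lpin1-/- values lay below all others, but the genotype difference of -0.42 ± 0.15 did not pass (adjusted p = 0.0790). Slc1a2 (GLT-1, a sodium-driven glutamate carrier) was at 39.8, 37.8, and 37.3 RPKM in fasted Lpin1+/+, 23.8, 34.8, and 45.9 RPKM in fasted Lpin1-/-, 32.4, 28.3, and 35.5 RPKM in refed Lpin1+/+, and 61.9, 43.7, and 46.5 RPKM in refed Lpin1-/- libraries. Its refed genotype difference of 0.63 ± 0.23 did not pass (adjusted p = 0.122), although the refed groups did not overlap.

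Slc15a4 (PHT1, a lysosomal carrier of histidine and dipeptides) was at 40.3, 19.4, and 18.6 RPKM in fasted Lpin1+/+, 13.4, 14.9, and 24.0 RPKM in fasted Lpin1-/-, 12.5, 10.8, and 15.8 RPKM in refed Lpin1+/+, and 29.8, 21.7, and 28.0 RPKM in refed Lpin1-/- libraries. Refed Lpin1-/- values exceeded refed Lpin1+/+ values by 0.97 ± 0.31 (adjusted p = 0.0832) without passing, and its interaction of 1.48 ± 0.43 did not pass either (adjusted p = 0.115). Slc3a1 (rBAT, the heavy chain for cystine and dibasic amino acid exchange) was at 65.9, 31.8, and 25.7 RPKM in fasted Lpin1+/+, 37.5, 39.8, and 29.6 RPKM in fasted Lpin1-/-, 29.2, 24.4, and 12.7 RPKM in refed Lpin1+/+, and 66.0, 43.1, and 30.2 RPKM in refed Lpin1-/- libraries. The refed Lpin1-/- libraries of Slc3a1 all exceeded the refed Lpin1+/+ libraries, with a difference of 1.04 ± 0.39 (adjusted p = 0.140), and 26.5% of its exon bases are shared with Prepl on the opposite strand.

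Slc43a3, which carries purine nucleobases, was at 16.2, 4.71, and 12.0 RPKM in fasted Lpin1+/+, 17.9, 24.5, and 29.2 RPKM in fasted Lpin1-/-, 14.7, 14.1, and 7.22 RPKM in refed Lpin1+/+, and 24.9, 19.0, and 16.7 RPKM in refed Lpin1-/- libraries. Its fasted genotype difference of 1.17 ± 0.39 did not pass (adjusted p = 0.0573), and after median-ratio rescaling it was 1.30 (adjusted p = 0.0118). Slc7a7 (y+LAT1), the most abundant light chain, was at 2.53, 1.24, and 3.42 RPKM in fasted Lpin1+/+, 5.88, 2.14, and 1.75 RPKM in fasted Lpin1-/-, 2.58, 15.7, and 1.48 RPKM in refed Lpin1+/+, and 0.888, 2.84, and 1.52 RPKM in refed Lpin1-/- libraries. Its highest value lay in the refed Lpin1+/+ library with the most macrophage markers. The same library held the highest Slc15a3 (13.2 RPKM), Slc43a2 (6.43 RPKM), Slc6a8 (5.34 RPKM), and Slc1a4 (3.88 RPKM), and the part of these cells in the levels was not tested.

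By role, the monocarboxylate group held the most altered members, with 5 of 10 tested passing between genotypes in fasted liver (2 higher, 3 lower) and 2 of 10, both lower, in refed liver. Of all genes, 5.63% were higher and 13.2% lower in fasted liver, and 2.6% were higher and 4.07% lower in refed liver. Most role groups are too small to be read against these shares. Of the 7 sodium-coupled neutral transporters, 0 passed in fasted liver and 1 fell in refed liver. At an unadjusted p under 0.05 in limma, Slc38a2, Slc38a6, and Slc38a7 of this group differed in fasted liver, as did 33.0% of all genes. In fasted liver, 1 of 6 sodium- and chloride-coupled genes, 1 of 2 heavy chains, 1 of 4 light chains, and 1 of 2 proton-coupled genes passed. Slc38a2 (SNAT2), which is known to rise when cells lack amino acids, had the largest fasted difference that did not pass, 1.56 ± 0.65 (adjusted p = 0.120), with values of 58.2, 11.1, and 13.1 RPKM in Lpin1+/+ and 36.6, 59.0, and 113 RPKM in Lpin1-/- libraries. It was chosen after its values were seen, and without the 3 libraries that stood apart its difference was 2.66 (adjusted p = 0.00669). The highest fasted Lpin1+/+ value lay in replicate 1, which was left out there.

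Neighboring pathways were described with lists written from general knowledge. Of 7 tested transporters known to respond to ATF4, the transcription factor of amino acid shortage, 1 (Slc3a2) was higher in fasted Lpin1-/- liver, where 5.63% of all genes were. Without the 3 libraries that stood apart, 4 were, when 2415 of all genes passed and 44.6% of those were higher. Of 20 tested genes of the amino acid response, 4 were higher and 3 lower in fasted Lpin1-/- liver, where 5.63% of all genes were higher and 13.2% lower. Among them, Atf3 was at 3.01 ± 0.34, Cth, a cysteine synthesis enzyme, at 2.37 ± 0.26, and Atf4 at 1.00 ± 0.21. The lower ones were Fgf21, a fasting hormone, at -3.90 ± 0.59, Atf5 at -2.46 ± 0.32, and Shmt2 at -1.53 ± 0.24. Refeeding in Lpin1-/- liver raised 6 of the 20 and lowered 4, where 17.8% of all genes rose and 2.92% fell. The tRNA synthetase genes Aars and Nars were higher by 1.35 ± 0.28 and 1.22 ± 0.27. The 4 lower genes were Chac1 at -2.54 ± 0.78, Atf3 at -2.50 ± 0.34, Atf4 at -0.71 ± 0.21, and Eif4ebp1 at -0.68 ± 0.21. After rescaling, the split of the 20 genes was 3 higher and 6 lower. In Lpin1+/+ liver, where 1.52% of all genes rose, 2 were higher after refeeding, Ddit3 and Wars, which became 0 after rescaling.

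Of 36 amino acid catabolic enzymes, 6 were higher and 6 lower in fasted Lpin1-/- liver, where 5.63% of all genes were higher and 13.2% lower, and 10 were higher in refed Lpin1-/- liver, where 2.6% of all genes were higher. The higher ones included Got1, the cytosolic aspartate aminotransferase, at 2.87 ± 0.67 fasted and 4.07 ± 0.67 refed, and Sds, the serine dehydratase of gluconeogenesis, at 2.51 ± 0.31 and 1.62 ± 0.31. The lower ones in fasted liver included Amt and Gldc of the glycine cleavage system, at -2.19 ± 0.27 and -1.54 ± 0.41. The median over the 36 genes was -0.32 fasted and 0.55 refed, beside -0.14 and -0.07 for all genes, and 7 higher and 4 lower fasted and 11 higher refed were counted after rescaling. Without the 3 libraries that stood apart, 8 were higher and 4 lower fasted, and 12 were higher and 4 lower refed. Among 16 tested transporter partners and lysosomal sensing genes, 2 were higher and 1 lower in fasted Lpin1-/- liver, beside 5.63% and 13.2% of all genes. Sesn1, a sestrin that restrains mTORC1, was higher by 2.97 ± 0.34. Flcn, which acts on the Rag GTPases that read lysosomal amino acids, fell by 0.88 ± 0.25.

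Splicing was compared with the deposited inclusion and skipping counts of skipped exon events, in which an exon is either kept between its neighbors or left out. The inclusion level is the length-normalized share of reads that keep the exon, from 0 to 1. In fasted liver, 328 events in 32 of the 42 genes had at least 10 counts in every library, and 39 of them were altered between genotypes. Of these, 36 had lower inclusion in Lpin1-/- liver, where 7.54% of all events did, and 3 had higher inclusion, where 3.26% did. The median change in the log2 ratio of inclusion to skipping was -0.583 for the member events and -0.585 for all events tested. Lower inclusion was thus common to the events of all genes. Many events are overlapping forms of 1 exon that share reads, and the 39 covered 19 exon regions in 8 genes (Slc15a4, Slc36a1, Slc38a2, Slc38a3, Slc38a4, Slc43a1, Slc6a12, and Slc7a2). Of the 39, 35 had at least 5 counts of their rarer form on average over the libraries. The Slc36a1 event was not among these, since its skipping counts were 0, 0, and 0 in Lpin1+/+ and 0, 3, and 0 in Lpin1-/- libraries, beside inclusion counts of 224, 70, and 133 and of 24, 83, and 26, so that 3 skipping counts in all stand behind it. The count was 23 or 24 without the Lpin1+/+ library at list position 1 or 3, 21, 19, and 62 without the Lpin1-/- library at list position 1, 2, and 3, and 17 when values were weighted by the precision of their counts.

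By the log2 ratio of inclusion to skipping, the 4 altered events with the largest change in fasted liver were overlapping forms of 1 coding exon of Slc38a3. This ratio moves far when a form is almost absent in 1 genotype. By mean inclusion level, other altered events moved more, such as a 14-base form in Slc6a12 (0.980 to 0.778) and a 73-base form in Slc43a1 (1.00 to 0.806). Neither form is annotated in GENCODE M21. The annotated forms of these exons, 113 and 124 bases long, have the same skipping reads and moved less (0.996 to 0.956 and 1.00 to 0.888). The annotated form of the Slc38a3 exon is exon 9 of 16, 59 bases long (chr9:107656456-107656514, minus strand, GRCm38), a length that is not a multiple of 3. Coding exon 9 of 12 in Slc7a2 (chr8:40912480-40912685, plus strand), 206 bases long and also not a multiple of 3, had the largest change in the log2 ratio outside Slc38a3. It was named after its values were seen. Both are printed 5′ to 3′ from GENCODE M21 transcripts, since these are the bases missing from the skipped mRNA.
Slc38a3 exon 9: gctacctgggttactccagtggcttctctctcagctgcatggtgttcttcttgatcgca
Slc7a2 exon 9: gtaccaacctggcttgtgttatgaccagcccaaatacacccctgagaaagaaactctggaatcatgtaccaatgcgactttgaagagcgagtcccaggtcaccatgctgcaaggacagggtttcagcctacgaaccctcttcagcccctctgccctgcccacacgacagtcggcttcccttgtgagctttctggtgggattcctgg

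Skipping of the Slc38a3 exon was supported by 3, 0, and 0 reads in fasted Lpin1+/+ libraries and by 71, 51, and 17 reads in fasted Lpin1-/- libraries, beside 10607, 4703, and 6946 and 1889, 6528, and 6149 reads that kept it. Its inclusion level was 0.999, 1.00, and 1.00 in Lpin1+/+ and 0.934, 0.986, and 0.995 in Lpin1-/- libraries (change in the log2 ratio of inclusion to skipping -6.12 ± 1.01, adjusted p = 0.0034). The Slc7a2 exon was skipped by 4, 0, and 0 reads in fasted Lpin1+/+ and by 179, 129, and 43 reads in fasted Lpin1-/- libraries, at inclusion levels of 0.998, 1.00, and 1.00 against 0.795, 0.924, and 0.981 (-5.94 ± 0.95, adjusted p = 0.00303). In refed liver its inclusion was 1.00, 1.00, and 0.995 in Lpin1+/+ and 0.990, 0.995, and 0.981 in Lpin1-/- libraries, a change that did not pass (-2.96 ± 0.91, adjusted p = 0.174).

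The 3 events with higher inclusion in fasted Lpin1-/- liver, like the Slc7a2 coding exon, were named after their values were seen. A 139-base exon of Slc7a2 that is not annotated in GENCODE M21 (chr8:40879018-40879156) was included at 0.00904, 0, and 0 in fasted Lpin1+/+ and at 0.516, 0.345, and 0.279 in fasted Lpin1-/- libraries, from 1, 0, and 0 and 39, 72, and 46 inclusion reads (5.58 ± 0.74, adjusted p = 0.00131). All 3 Lpin1-/- libraries exceeded the Lpin1+/+ libraries, the event rests on few reads, and it was not tested in refed liver. Its downstream neighbor (chr8:40898967-40898982) had 36, 11, and 16 skipping reads in Lpin1+/+ and 12, 45, and 39 in Lpin1-/- libraries. From the same upstream exon, the neighbor at chr8:40898937-40899328 had 2174, 275, and 370 and 540, 1167, and 1860 skipping reads. The inclusion level is thus not a share of all Slc7a2 mRNA. A second unannotated exon nearby, 163 bases long (chr8:40876970-40877132), rose from a mean inclusion of 0.00116 to 0.0128 (adjusted p = 0.0279).

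A 95-base exon of Slc38a3 outside the coding sequence (chr9:107665170-107665264) was included at 0.595, 0.362, and 0.227 in fasted Lpin1+/+ and at 0.983, 0.896, and 0.763 in fasted Lpin1-/- libraries, from 155, 34, and 52 and 138, 247, and 216 inclusion reads (4.01 ± 0.99, adjusted p = 0.0238). With the far more common neighbor (chr9:107667304-107667392), inclusion of the same exon was 0.0127 on average in Lpin1+/+ and 0.0609 in Lpin1-/- liver and did not pass (2.33 ± 0.73, adjusted p = 0.0616). In refed liver the first form was at 0.449, 0.750, and 0.587 in Lpin1+/+ and 0.634, 0.638, and 0.549 in Lpin1-/- libraries, with a difference of 0.05 ± 0.67 (adjusted p = 0.983).

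**Figure D4:**
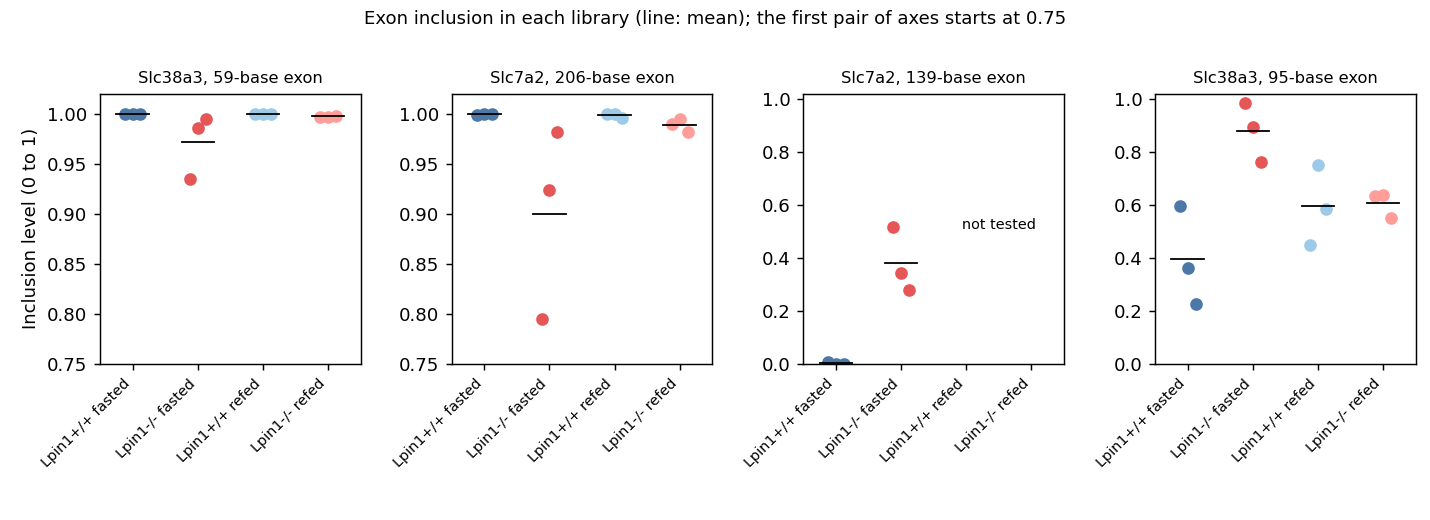
Inclusion level, from 0 to 1, of 4 exons in each library (points) with the group mean (line). The 59-base Slc38a3 and 206-base Slc7a2 exons, on axes that start at 0.75, are kept less often in fasted Lpin1-/- liver, at means of 0.972 and 0.900, and the 139-base Slc7a2 and 95-base Slc38a3 exons are kept more often, at means of 0.380 and 0.881. The levels of the 139-base and 95-base exons hold for 1 pair of neighboring exons and are not shares of all mRNA of the gene.

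In refed liver, 286 events in 30 genes were tested and 4 were altered, all forms of the same Slc38a3 exon and all with lower inclusion, where 0.858% of all events had lower inclusion and 0.17% higher inclusion. The median change in the log2 ratio was -0.183 for the member events and -0.213 for all events tested. Skipping of the 59-base form was supported by 0, 0, and 0 reads in Lpin1+/+ and by 19, 11, and 8 reads in Lpin1-/- libraries, and inclusion was 0.997, 0.997, and 0.998 in the latter (adjusted p = 0.0129). All 4 were lost when any 1 of the 6 refed libraries was left out, and 9 events passed when values were weighted by precision. At an unadjusted p under 0.05 in limma, 108 of 328 fasted and 67 of 286 refed events differed. The share of all events that did was not computed, so these counts are not read further. Whether the genotype difference of an exon differed between fasted and refed liver was not tested.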

How the data were processed

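Liver RNA from 12 mice (4 groups of 3 separate animals) was sequenced with a stranded TruSeq kit (69 bp paired ends, 6 lanes, 150 M reads per library stated). The authors aligned reads with HISAT2 2.0.5 to GRCm38 (Ensembl 84), counted genes with HTSeq 0.6.0, and deposited RPKM per library. The strand setting and the rMATS version are not given in the sources used here. The deposited exon event tables hold inclusion and skipping counts in lists of 3 libraries without replicate numbers, with the authors' p-values and FDR, which were not used, nor were their term enrichment table, their shortened event tables, or their DESeq2 1.20.0 results.

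RPKM values were tested as log2(RPKM + 1) with limma 3.58.1 (R 4.3.3) in 1 fit of all 4 groups with a variance trend, keeping 11507 genes whose mean reached 0.5 RPKM, with Benjamini-Hochberg adjustment over them and a threshold of 0.05. For exon events, inclusion and skipping counts were divided by the length of each form after 0.5 was added, and limma was run on their log2 ratio within each feeding state, requiring 10 counts per library. The depth at which low values came closest to whole reads was 93.8 to 125.3 M reads per library, but only 9.99% to 14.1% of values of 1 to 4 reads were then whole (within 0.02 read), so this depth is an estimate and no count test was run. The scripts were tested on simulated data. With 3 against 3 an exact permutation test cannot go below 0.1. Named genes were those past the threshold and the highest of each role group, and 1 member is counted but not reported here by name or in the figures. The members, lists, and motifs were chosen with earlier results of these data known. Alternatives were another pseudocount, filter, scaling, variance model, replicate block, count minimum, and weights, each library left out in turn, and, chosen after seeing the data, 3 libraries left out together. Figures were drawn with matplotlib 3.10.9.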

Additional observations from a re-analysis of the deposited data

Results flagged for a closer look

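The response of Slc16a6 to refeeding differed between genotypes by a test of the difference itself, an interaction of -1.61 on the log2(RPKM + 1) scale (limma, adjusted p = 0.0104). It was higher after refeeding in Lpin1+/+ liver by 0.99 and lower in Lpin1-/- liver, where it fell by 0.62.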

How the results depend on the processing

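No fold change of a named gene past the threshold changed sign under the alternatives run, but medians over the members did, such as genotype in fasted liver (-0.02, and 0.20 without fasted Lpin1+/+ replicate 1), the interaction (0.09, and -0.26 without that library), and refeeding in Lpin1-/- liver (0.18, and -0.0053 after rescaling). Members altered by refeeding in Lpin1+/+ liver numbered 0 with a minimum of 5 RPKM, after median-ratio rescaling, or with only the 6 libraries compared, 2 without the 3 libraries that stood apart (chosen after seeing the data), and 0 to 1 when 1 library was left out. For refeeding in Lpin1-/- liver, leaving out 1 library gave 1 to 5. For genotype in fasted liver the count was 5 with a minimum of 5 RPKM, 14 without the 3 libraries, and 7 to 13 when 1 library was left out. For genotype in refed liver it was 1 with no filter, 8 without the 3 libraries, and 0 to 5 when 1 library was left out. For the interaction it was 2 after rescaling, which added Slc16a12 (1.20, adjusted p = 0.0398), and 1 to 2 when 1 library was left out. Altered exon events numbered 17 (fasted) and 9 (refed) with precision weights, and 19 to 62 and 0 to 0 when 1 library was left out. The cause of these shifts was not tested.

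Replicate numbers were shared between groups, but correlations of same-numbered libraries ran from -0.474 to 0.743, with 8 of 18 over 0.1, and 6 of 12 libraries correlated best with their own number, so the samples share only a number. With the replicate block, 2 members passed for genotype in refed liver, Slc16a12 (lower) and Slc3a1, which was higher by 1.04 ± 0.23 (adjusted p = 0.0386) and did not pass without the block, while Slc36a1 (adjusted p = 0.0835) and Slc38a10 (adjusted p = 0.0800) did not pass. No paired analysis was possible for exon events because their lists carry no replicate numbers.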
